A study of Mus musculus and synthetic construct with 3 samples.

Results

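Mgp encodes matrix Gla protein, a small secreted protein of the extracellular matrix. Vitamin K-dependent carboxylation turns some of its glutamates into gamma-carboxyglutamate, which binds calcium. In arteries it is made mainly by vascular smooth muscle cells and is known as an inhibitor of calcification, since mice that lack it calcify their large arteries. It also binds bone morphogenetic proteins and limits their signaling. The gene lies on mouse chromosome 6 from 136872435 to 136875823 on the minus strand (GRCm38, GENCODE vM21), and its identifier ENSMUSG00000030218 is the one in the deposited data. It was taken as 1 gene of 32285 in the matrix, by its name, and its values were followed across the aortic wall.

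The tissue came from Apoe-/- male mice, labeled as 16 weeks old, which lack apolipoprotein E and are prone to atherosclerosis, on a normal diet. The AAA group was infused with angiotensin II (AngII) by minipump for 4 weeks, at a labeled dose of 1000 ng/ml, and 3 of its 5 mice, those that developed an abdominal aortic aneurysm, were sectioned. The control group received saline for the same time, and 3 of its 5 mice were sectioned. The study's methods give another age and another unit of dose than the labels. Because the AAA mice were chosen for their aneurysm, they stand for the aneurysm and not for every mouse given AngII. Suprarenal aortas were embedded as pairs of 1 AAA and 1 control aorta, and 10 sections per group, each 10 μm thick, were placed on 1 Seq-Scope array, on which each DNA spot carries a barcode of known position. A UMI (unique molecular identifier) is 1 captured RNA molecule. The labels pool both conditions, so each section took its condition and mouse from the place of its outline on the study's section map. Mice are named AAA 1 to 3 and control 1 to 3.

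Exonic UMIs were summed in hexagons with 12 μm sides, and hexagons with 75 or more genes were kept. This gave 4949 hexagons with 121.3 ± 46.8 UMIs (SD). They held 8591 of the 45036 exonic Mgp UMIs of all barcodes. Inside the sections, hexagons of 25 to 74 genes held 14947 Mgp UMIs and those under 25 genes held 11906. The study reports a far larger number of hexagons with the same sides and gene minimum. The cause of that difference was not tested. Depth was uneven, since AAA mice had 2669, 906 and 880 kept hexagons and control mice had 281, 120 and 93. A hexagon can hold parts of several cells, and a lower sum cannot separate fewer cells of a type from less RNA per cell. RNA was also found outside the section outlines. Hexagons between the sections, with a median of 5 UMIs, carried 119 Mgp UMIs per 10000 UMIs, against 143 in kept hexagons. Tissue left of the first section, which belongs to no group, carried 37.3. The contractile markers (10 genes led here by Acta2) were seen in every mouse, at 79.8 to 131 UMIs per 10000 in AAA mice and 236 to 317 in control mice, with Smtn at 0 in control 2.

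Mgp had more UMIs than any other gene in the kept hexagons, 8591 in all or 1.43% of UMIs. It ranked first by UMIs in each AAA mouse, while its rank was 2, 3 and 1 in control mice 1, 2 and 3. No Mgp UMI was counted as unspliced in any mouse. Of the spliced and unspliced UMIs of all genes, 58.4 to 63.7% were unspliced in AAA mice and 62.2 to 70.6% in control mice. In AAA 1 counts over whole genes gave 4566 Mgp UMIs, against 4554 exonic ones. At most 5 Mgp UMIs shared 1 barcode in AAA mice, and at most 4 in control mice.

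The first comparison asked whether Mgp differed between aneurysmal and normal walls. Mgp made up 135, 127 and 212 UMIs per 10000 in AAA mice 1, 2 and 3, against 97.6, 94.0 and 145 in control mice 1, 2 and 3. The groups overlapped, because control 3 lay above AAA 1 and AAA 2. The means were 158 ± 46.5 in AAA mice and 112 ± 28.2 in control mice (SD, n = 3 each), a ratio of 1.41 (exact two-sided permutation p = 0.3, where 0.1 is the smallest possible). In edgeR's quasi-likelihood test over mice the log2 fold change was 0.56 ± 0.22 (SE) with a 95% interval of 0.09 to 1.02 and an adjusted p of 0.200 (Benjamini-Hochberg), so it did not pass the threshold of 0.05. In that test 52 of 1201 genes passed, or 4.33%, with 1.67% higher and 2.66% lower in AAA mice. With the embedding pair as a block edgeR gave 0.53 ± 0.10 and an adjusted p of 0.0147, which passed. DESeq2 also passed it (0.78 ± 0.25, adjusted p = 0.0340, with a median of -0.37 over all genes), and so did all hexagons inside the sections, with no gene minimum (0.42 ± 0.10, edgeR adjusted p = 0.0132). Without AAA 3, the mouse of highest Mgp, the log2 fold change was 0.27 (edgeR adjusted p = 0.484).

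**Figure D1:**
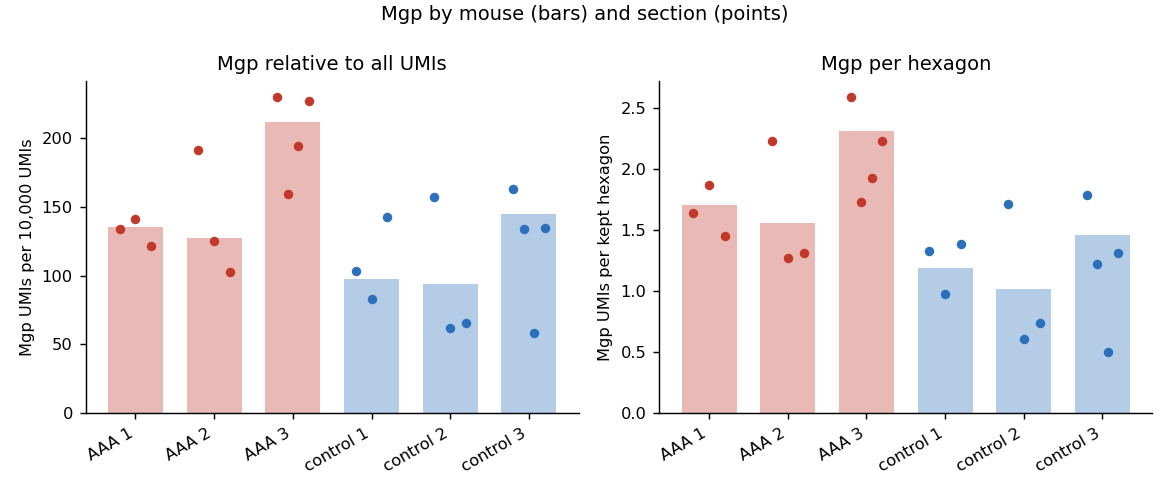
Mgp UMIs per 10000 UMIs (left) and per kept hexagon (right) for the 3 AAA mice (red) and the 3 control mice (blue). Bars are mice, with all their sections summed, and points are sections. Per 10000 UMIs control 3 at 145 lies above AAA 1 and AAA 2, while per hexagon the lowest AAA mouse at 1.56 lies above the highest control mouse at 1.46.

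Sections of 1 mouse differed about as much as mice did. Among the 10 AAA sections Mgp ranged between 103 and 230 per 10000 with a median of 150, and among the 10 control sections between 58.3 and 163 with a median of 119. AAA 2 alone had sections at 191, 125 and 103. Control 3 had sections at 163, 134, 58.3 and 135, the lowest resting on 4 hexagons.

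Counted per hexagon, the groups did not overlap. AAA mice had 1.71, 1.56 and 2.31 Mgp UMIs per kept hexagon, and control mice had 1.19, 1.02 and 1.46. The means were 1.86 ± 0.40 and 1.22 ± 0.22 (SD, n = 3 each, exact two-sided permutation p = 0.1, the smallest possible). This value is not scaled to the depth of the hexagons, whose median was 109, 109 and 100 UMIs in AAA mice and 108, 97 and 97 in control mice.

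Detection was also compared. The share of kept hexagons with an Mgp UMI was 68.2, 68.1 and 80.1% in AAA mice, against 63.0, 47.5 and 77.4% in control mice. After every hexagon was thinned to 75 UMIs, the expected share was 60.2% ± 9.78 in AAA mice and 51.8% ± 13.8 in control mice (SD, n = 3 each, exact two-sided permutation p = 0.4). As background, 41.5% ± 0.89 of adipocyte-rich hexagons of AAA mice, the class with least Mgp, had an Mgp UMI at 75 UMIs (SD, n = 3).

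Hexagons rich in Mgp were more frequent in the aneurysms. Hexagons with 4 or more Mgp UMIs made up 11.95, 11.6 and 21.8% of those in AAA mice 1, 2 and 3, against 6.05, 4.17 and 5.38% in control mice 1, 2 and 3, with no overlap, a share that was not adjusted for the mean level. The variance of Mgp UMIs over hexagons was 3.25, 2.90 and 2.26 times the mean in AAA mice, and 1.36, 5.22 and 1.08 times in control mice. The value of 5.22 belongs to control 2, where a single hexagon held 23 Mgp UMIs on 18 barcodes.

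The richest hexagons lay mostly in 1 section. Of 15 hexagons with 15 or more Mgp UMIs, 14 lay in AAA sections and 9 in the second section of AAA 1. AAA mice held most kept hexagons (2669, 906 and 880, against 281, 120 and 93), so 14 of 15 is close to their share. The second section of AAA 1 held 1083 of the 4949. In that section one held 28 Mgp UMIs of its 163 UMIs, on 20 barcodes, and no class could be given to it. Another held 28 of 245 and was macrophage-rich. Of the 15 hexagons, 2 had 3 or more Acta2 UMIs, as did 202 of all 4949 kept hexagons. Without that section the log2 fold change of all kept hexagons was 0.54 (edgeR adjusted p = 0.175), an alternative chosen after seeing the data.

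**Figure D2:**
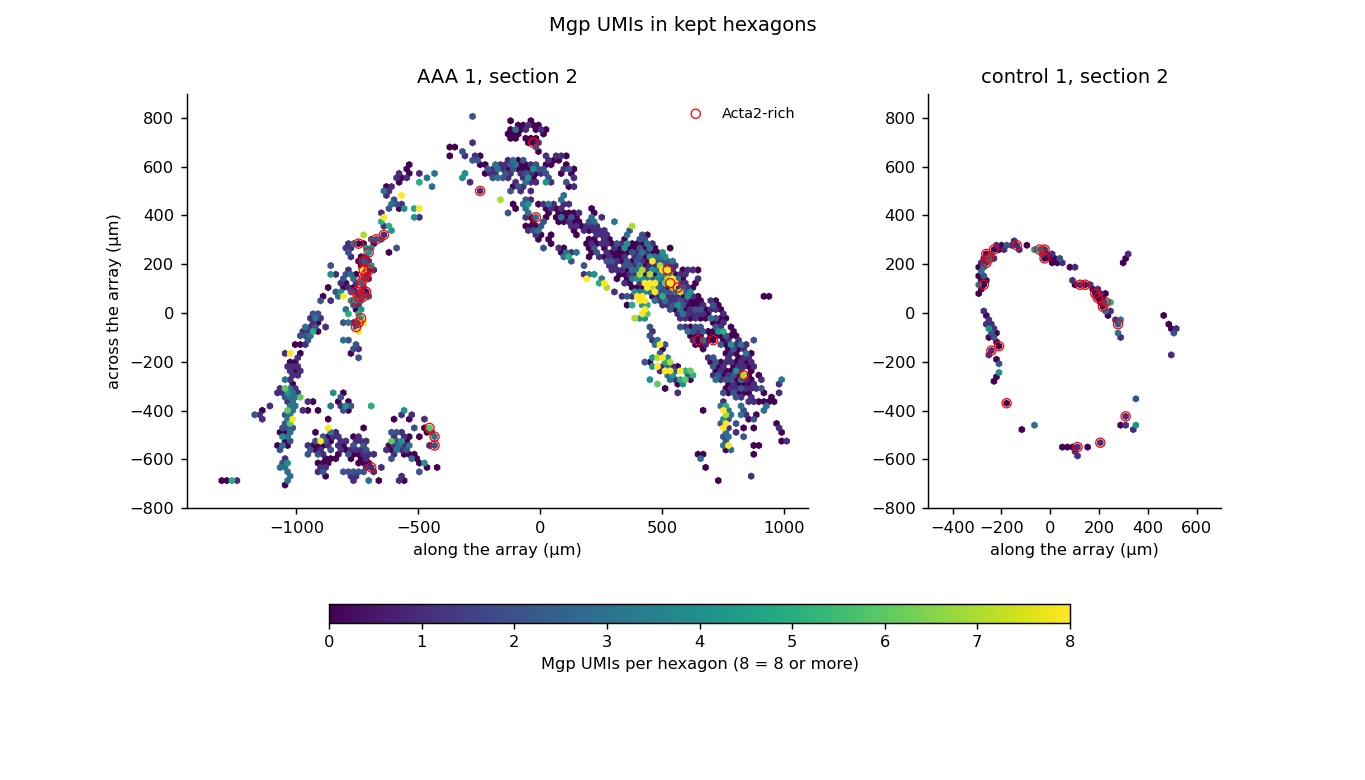
Kept hexagons of the second section of AAA 1 (left) and of control 1 (right), at the same scale, by position along and across the array in μm from the section's mean. Color gives Mgp UMIs per hexagon up to 8 or more, and red circles mark Acta2-rich hexagons. The AAA section holds 9 of the 15 hexagons with 15 or more Mgp UMIs, while the highest hexagon of the control section has 5. The sections have 1083 and 114 kept hexagons.

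Neighboring hexagons resembled each other. In AAA mice, hexagons within 25 μm of one with 4 or more Mgp UMIs carried 224 ± 42.2 Mgp UMIs per 10000, those around hexagons with 1 to 3 carried 149 ± 45.4, and those around hexagons with none carried 110 ± 18.7 (SD, n = 3). The order held in AAA 1, 2 and 3. In control mice the same values were 155 ± 68.8, 119 ± 15.05 and 92.9 ± 29.3, the first resting on 17, 5 and 3 hexagons, and control 3 did not follow the order. These are descriptions with no test, and spread of RNA between adjacent hexagons was not tested.

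The next question was where Mgp lay relative to smooth muscle RNA. A hexagon with 3 or more UMIs of Acta2, the actin of smooth muscle, was called Acta2-rich. There were 129 such hexagons in AAA mice and 73 in control mice. On them Mgp was 186, 187 and 186 UMIs per 10000 in AAA mice, from 203, 27 and 90 Mgp UMIs, against 98.5, 76.7 and 164 in control mice, from 59, 11 and 29 Mgp UMIs. Each AAA mouse lay above each control mouse.

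In the Acta2-rich hexagons the means were 186 ± 0.42 in AAA mice and 113 ± 45.7 in control mice (SD, n = 3 each), a ratio of 1.65 with an exact two-sided permutation p of 0.1, the smallest possible. The near equality of the AAA mice is closer than their counts of 27 to 203 UMIs could fix. edgeR gave a log2 fold change of 0.86 ± 0.19 (SE, 95% interval 0.48 to 1.23, adjusted p = 3.73e-04). Only 19 genes had enough UMIs to be tested there and Mgp alone passed, or 5.26%. The call was lost without AAA 1 (0.68, edgeR adjusted p = 0.0819), without control 1 (0.75, adjusted p = 0.115) and without control 2 (0.68, adjusted p = 0.0896). It was also lost in DESeq2 over more genes (0.85 ± 0.31, adjusted p = 0.984), while the direction stayed the same in the alternatives run.

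Hexagons with no Acta2-rich one within 45 μm were called away from Acta2-rich hexagons. There Mgp was 128, 123 and 209 UMIs per 10000 in AAA mice, against 82.4, 106 and 133 in control mice. Here the groups overlapped, since AAA 1 and AAA 2 lay below control 3. edgeR gave a log2 fold change of 0.60 ± 0.28 (SE, 95% interval 0.01 to 1.19, adjusted p = 0.272), which did not pass. In this comparison 32 of 703 genes passed, or 4.55%, with 1.71% higher and 2.84% lower in AAA mice. Without control 2 the value was 0.95 and the adjusted p in edgeR 0.0297, which passed, and without AAA 3 it was 0.22. In control mice the away hexagons still held smooth muscle RNA. The smooth muscle gene Tagln was at 23.6, 41.2 and 70.8 UMIs per 10000 there, against 15.3, 11.6 and 20.5 in AAA mice. Acta2 was lower in AAA mice in this comparison, at -1.07 (edgeR adjusted p = 0.0212).

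Whether the AAA effect on Mgp was larger on Acta2-rich hexagons than away from them was tested directly. The difference of the log2 fold changes was 0.41 ± 0.35 (SE, 95% interval -0.33 to 1.14, edgeR adjusted p = 0.799). No difference was detectable, and the interval is wide. Because the away hexagons of control mice held smooth muscle RNA too, this test cannot compare smooth muscle with other tissue. Without control 2 the difference was 0.01, and without AAA 1 it was 0.13. In that test 0 of 107 genes passed in edgeR, or 0.00%, and 11 had an unadjusted p under 0.05.

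Within the aneurysms Mgp was higher close to Acta2-rich hexagons than far from them in each mouse, but by small amounts. Hexagons within 45 μm of an Acta2-rich one carried 169, 184 and 227 Mgp UMIs per 10000 in AAA 1, 2 and 3, against 128, 123 and 209 farther away. In control mice the near hexagons carried 113, 56.1 and 146 and the far ones 82.4, 106 and 133, the reverse in control 2. The log2 ratio of near to far was 0.37 ± 0.23 in AAA mice and -0.11 ± 0.72 in control mice (SD, n = 3 each).

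In edgeR with the mouse as a block, near against far in AAA mice gave 0.28 ± 0.11 (SE, 95% interval 0.06 to 0.50, adjusted p = 0.437). In that test 3 of 1022 genes passed, or 0.294%. They were Lama5, a laminin chain of basement membranes, and the smooth muscle genes Tagln and Myl9. For Mgp the near and far values also changed places between sections, with near above far in 5 of 10 AAA sections. Without AAA 1 the fitted value was 0.15, without AAA 2 it was 0.20, and counts over whole genes gave 0.45 with an adjusted p of 8.78e-04 in edgeR. With whole genes the gene minimum was met by more hexagons. AAA 1 then had 1037 near and 8476 far hexagons, against 331 and 2264.

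In finer steps, Mgp in AAA mice averaged 186 ± 0.42 UMIs per 10000 on Acta2-rich hexagons, 194 ± 30.2 within 45 μm, 164 ± 51.8 at 45 to 100 μm, 160 ± 36.6 at 100 to 200 μm and 147 ± 50.5 beyond 200 μm (SD, n = 3). Neighboring steps differed by less than the spread between mice. AAA 3 stayed at 202 or above in each step off the Acta2-rich hexagons, while AAA 1 and AAA 2 reached 123 and 113 beyond 200 μm.

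In control mice the steps averaged 113 ± 45.7, 105 ± 45.5, 99.3 ± 23.0, 77.7 ± 17.2 and 148 ± 43.6 (SD, n = 3), the last on 72 hexagons. AAA mice lay above control mice with no overlap in the first 4 steps (exact two-sided permutation p = 0.1 in each, the smallest possible). Beyond 200 μm they did not, at 147 in AAA mice and 148 in control mice (exact permutation p = 1). The control value there rests on few counts. Control mice 1, 2 and 3 had 16, 47 and 9 hexagons in that step, with 19, 63 and 16 Mgp UMIs. The 63 of control 2 include the single hexagon with 23 Mgp UMIs.

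**Figure D3:**
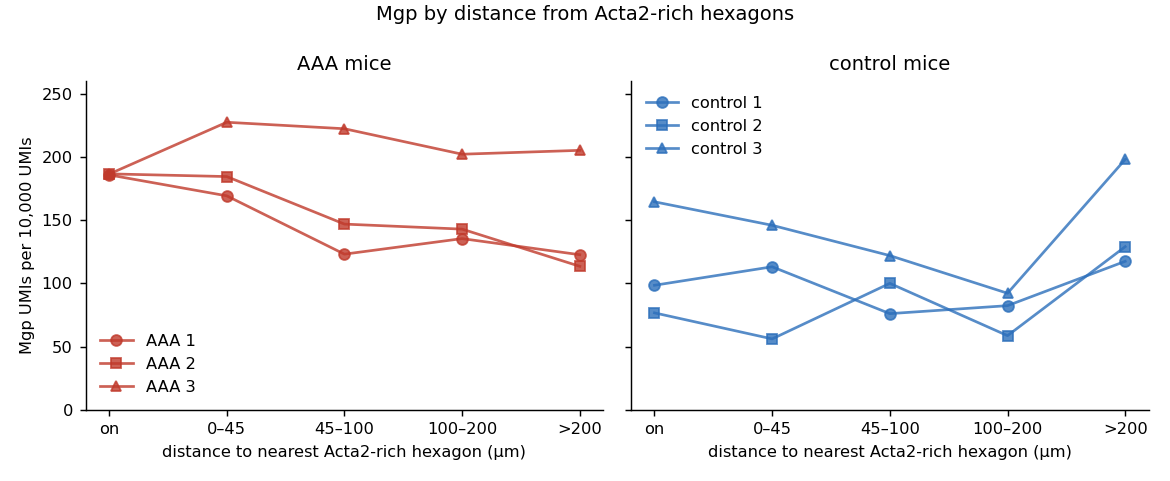
Mgp UMIs per 10000 UMIs by distance from the nearest Acta2-rich hexagon in μm, for each AAA mouse (left, red) and each control mouse (right, blue). The 3 AAA mice meet at 186 to 187 on Acta2-rich hexagons and part with distance, and each control mouse lies higher beyond 200 μm, on 72 hexagons in all, than at 100 to 200 μm.

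Other matrix genes had their own gradients in AAA mice, given as log2 ratios of near to far over 3 mice (SD). Eln, the elastin of the medial lamellae, was at 0.79 ± 0.05 and Fn1, fibronectin, at 0.74 ± 0.19, both higher near in each AAA mouse. Col3a1, a fibrillar collagen, was at -0.42 ± 0.35 and Fbln1, fibulin, at -0.88 ± 0.69, both lower near in each. Mgp was at 0.37. None of these 4 genes passed edgeR's test of near against far. Col1a2, a collagen gene, at -0.32 ± 0.52 and Dcn, decorin, at -0.46 ± 0.67 did not share 1 direction. Each was higher near in 1 AAA mouse and lower near in the others.

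Hexagons were then put in classes by marker UMIs that leave Mgp out: contractile, collagen, macrophage, adipocyte and hemoglobin. A class needs 2 or more marker UMIs and at least 2 times their average share, so it marks hexagons rich in such RNA and not a cell type. Of 2511 classed hexagons 614 lay within a ratio of 2.5, just inside the limit, and 491 others lay just outside it.

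Averaged over the AAA mice, Mgp was highest in contractile-rich hexagons, with 171, 170 and 209 UMIs per 10000 in AAA 1, 2 and 3. Collagen-rich hexagons had 170, 113 and 217, and macrophage-rich hexagons 140, 153 and 198. Hexagons of no class had 136, 129 and 241. The order of these 4 groups differed between mice, with no class highest in AAA 3, so they are not separated beyond the spread.

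Lower levels were found in hemoglobin-rich hexagons, with 105, 79.6 and 135 Mgp UMIs per 10000, and in adipocyte-rich ones, with 72.8, 67.1 and 89.5. In each AAA mouse both lay below the 4 other groups, and adipocyte-rich hexagons were lowest. The adipocyte-rich hexagons also lay below the 119 found between the sections. Over all kept hexagons control 1 and control 2 lay below it too, at 97.6 and 94.0. The AAA mice, at 135, 127 and 212, and control 3, at 145, lay above it. The part of RNA from outside the sections in these levels was not tested. The averages were 107 ± 27.9 and 76.5 ± 11.6, against 183 ± 22.3 in contractile-rich hexagons (SD, n = 3).

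edgeR with the mouse as a block put Mgp lower in adipocyte-rich than in contractile-rich hexagons by a log2 fold change of -1.28 ± 0.16 (SE, adjusted p = 1.91e-10, with 23.0% of 270 genes past the threshold, 10.0% higher and 13.0% lower). In hemoglobin-rich hexagons it fell by 1.08 on the log2 scale, with an SE of 0.22 (edgeR adjusted p = 1.72e-04, 6.67% of genes past it, 1.85% higher and 4.81% lower). That class had 36, 9 and 7 hexagons in AAA 1, 2 and 3, and without AAA 2 the value was -0.99 with an edgeR adjusted p of 0.0543, while without AAA 1 it was -1.64. Collagen-rich hexagons were at -0.17 ± 0.15 (adjusted p = 0.654, 12.6% of genes past it, 5.19% higher and 7.41% lower) and macrophage-rich ones at -0.27 ± 0.15 (adjusted p = 0.324, 12.2% of genes past it, 6.30% higher and 5.93% lower), neither of which passed edgeR's test. Their 95% intervals were -0.48 to 0.14 and -0.57 to 0.03.

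In control mice contractile-rich was the one class well filled in each mouse, with 107, 75.8 and 145 Mgp UMIs per 10000. Compared within this class, AAA mice averaged 183 ± 22.3 and control mice 110 ± 34.8 (SD, n = 3 each), with no overlap and a ratio of 1.67 (exact two-sided permutation p = 0.1, the smallest possible). Adipocyte-rich hexagons of control 1, the only control mouse with more than 5 of them, had 67.1 Mgp UMIs per 10000 (95% exact binomial interval 50.5 to 87.5, counting error only), close to the 72.8 of AAA 1 (65.4 to 80.9).

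**Figure D4:**
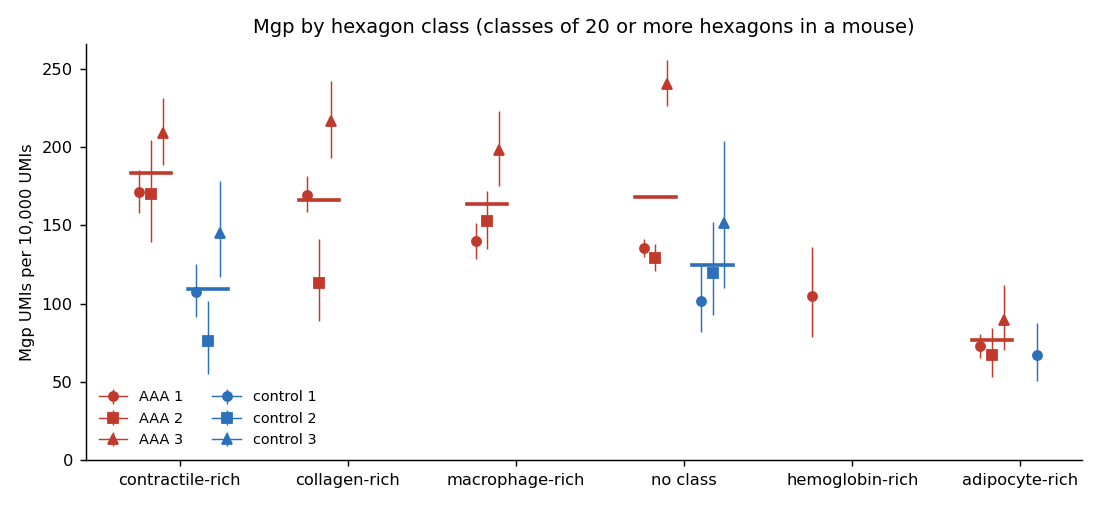
Mgp UMIs per 10000 UMIs by hexagon class for AAA mice (red, left in each pair) and control mice (blue, right). Points are mice with 20 or more hexagons of the class, bars on points are 95% exact binomial intervals of counting error, and horizontal lines are means over the mice drawn. Adipocyte-rich hexagons are lowest at 67.1 to 89.5 in AAA mice, and contractile-rich hexagons lie at 170 to 209 in AAA mice and 75.8 to 145 in control mice.

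Markers of other cell types were summed in the same hexagons, and some lists differed between the groups. Collagen markers (7 genes) summed to 134 to 182 UMIs per 10000 in AAA mice and 71.2 to 80.9 in control mice, where Pdgfra was at 0. Macrophage markers (10 genes) summed to 52.2 to 63.6 in AAA mice and 22.3 to 25.7 in control mice, with Cd68 and Ctss at 0 in control 3. Endothelial markers (6 genes) were at 4.99 to 6.77 in AAA mice and 2.92 to 6.38 in control mice, where 2 of them were at 0 in each mouse, so these ranges overlap. Hemoglobin markers (4 genes) were at 10.4 to 14.6 in AAA mice and at 25.1, 149 and 12.8 in control mice 1, 2 and 3, with Hba-a1 and Hbb-bt at 0 in control 3. Control 2, which stood apart in hemoglobin, had the lowest Mgp over all kept hexagons, at 94.0 UMIs per 10000. Away from Acta2-rich hexagons, where the comparison passed without it, its 106 lay between the 82.4 of control 1 and the 133 of control 3. A link to hemoglobin was not tested. Adipocyte markers (6 genes) were at 57.4 to 93.1 in AAA mice and 32.9 to 112 in control mice, which overlap, with Adipoq and Plin1 at 0 in control 3. Markers of visceral tissue (5 genes, among them Alb) were at 135 to 152 in AAA mice and 120 to 184 in control mice, which overlap. Between the sections they were at 161, so RNA of other organs was found across the array. Contractile markers were lower in each AAA mouse than in each control mouse, as given above. The part of this makeup in the Mgp levels was not tested.

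Co-detection asked whether Mgp shared hexagons with 4 other genes, at a fixed depth of 75 UMIs and as the log2 odds ratio of detection in each mouse. With Eln it was 0.43, 0.19 and 0.15 in AAA mice and 0.40, 0.57 and -0.25 in control mice. With Col1a2, a chain of type I collagen, it was 0.31, 0.09 and 0.25 in AAA mice and 0.45, 0.40 and -0.13 in control mice. Both were above 0 in 5 of 6 mice, control 3 being the exception.

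With Acta2 the log2 odds ratio was 0.01, 0.14 and 0.15 in AAA mice and 0.17, -0.07 and -0.20 in control mice. With Gpnmb, a glycoprotein of activated macrophages, it was 0.03, 0.06 and -0.01 in AAA mice and 1.28, -1.04 and 0.38 in control mice, where 13, 7 and 3 Gpnmb UMIs were found. Over 6 mice the means were 0.25 for Eln, 0.23 for Col1a2, 0.12 for Gpnmb and 0.03 for Acta2. None passed the exact two-sided sign-flip permutation test, with p = 0.125, 0.0938, 0.5625 and 0.594 in that order, and 0.25, 0.25, 0.594 and 0.594 after Benjamini-Hochberg adjustment over the 4. AAA and control mice were not separated for any of them, with adjusted p = 1 in exact permutation tests.

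The amount of Mgp was then compared between hexagons with and without Eln. In AAA 1, 2 and 3 hexagons with 2 or more Eln UMIs had 211, 254 and 254 Mgp UMIs per 10000 other UMIs, those with 1 Eln UMI had 164, 166 and 258, and those with none had 131, 121 and 203. Each AAA mouse had more Mgp where Eln was found, and the hexagons with 2 or more Eln UMIs numbered 42, 15 and 31. Control 1, 2 and 3 had 104, 591 and 80.6 with 2 or more Eln UMIs, on 4, 3 and 1 hexagons, 131, 97.6 and 142 with 1, and 95.2, 74.9 and 146 with none. Mgp was thus higher with Eln than without it in control 1 and 2 and lower in control 3, and the 591 includes the hexagon with 23 Mgp UMIs. For Col1a2 the steps of 2 or more, 1 and 0 UMIs averaged 189 ± 60.2, 161 ± 46.0 and 151 ± 45.7, and for Acta2 184 ± 19.6, 169 ± 54.2 and 151 ± 47.7 (SD, n = 3). For Gpnmb they were 136 ± 37.6, 183 ± 23.4 and 157 ± 49.5, with no one direction. These are descriptions over hexagons of the same mice, which share their depth and section, and carry no test.

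**Figure D5:**
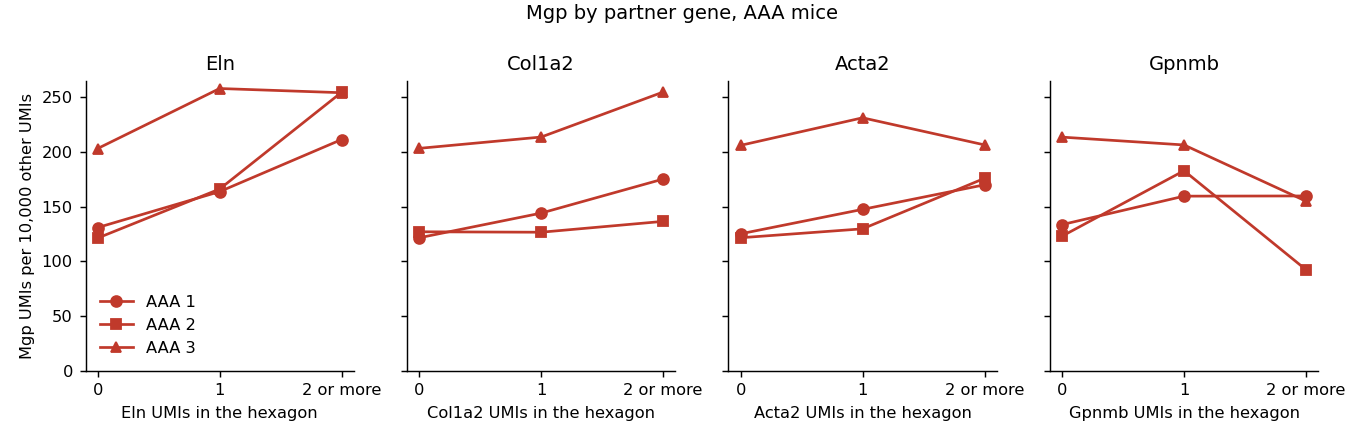
Mgp UMIs per 10000 other UMIs in hexagons with 0, 1 and 2 or more UMIs of Eln, Col1a2, Acta2 and Gpnmb, for each of the 3 AAA mice. With Eln the mice lie at 121 to 203 without an Eln UMI and at 211 to 254 with 2 or more, while with Gpnmb the lines do not share a direction.

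The genes whose detection was most like that of Mgp were found over hexagons of the 3 AAA mice. Among 242 genes seen in 5% or more of hexagons in each AAA mouse, the mean log2 odds ratio with Mgp had a median of -0.04, was above 0 in all 3 mice for 28 genes and below 0 in all 3 for 50. Among genes with 1 sign in all 3 mice, the highest were Serpine2 at 0.72 ± 0.05, a serine protease inhibitor, and Ccn2 at 0.64 ± 0.38, a matrix-associated growth factor (SD, n = 3). Dstn at 0.44 ± 0.18, an actin-severing protein, Lgals1 at 0.34, galectin 1, and Rab7 at 0.34, a GTPase of late endosomes, followed. The lowest were the adipocyte genes Cfd at -0.72 ± 0.33, Fabp4 at -0.68 ± 0.39 and Lpl at -0.53 ± 0.19, with Dbi at -0.53 and Oaz1 at -0.51. This ranking describes these hexagons and has no test.

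The proteins around matrix Gla protein were taken as 4 lists, whose call rates are read against the 4.33% of all genes in the comparison of AAA with control mice. Of 10 genes of Gla carboxylation and Gla proteins, 4 were tested and none passed edgeR's test. Vkorc1, which recycles vitamin K, was at a log2 fold change of 0.07 (edgeR adjusted p = 0.938), and Gas6, a Gla protein that binds receptor tyrosine kinases, at 0.65 (adjusted p = 0.570). Calu and Postn were at -0.15 and -0.01.

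Of 23 genes of bone morphogenetic protein signaling, 3 were tested and none passed, with Fstl1 at 0.27, Id3 at -0.38 and Id2 at -1.03 on the log2 scale. Id2, a target of that pathway, had an unadjusted p of 0.0261 and an adjusted p of 0.213 in edgeR. The receptor gene Acvrl1 had 53, 19 and 12 UMIs in AAA mice, against 4, 0 and 0 in control mice, too few to be tested. The ligands and the other receptors of the list were likewise under the filter.

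Of 15 regulators of calcification 3 were tested and 1 rose. Comp, a cartilage matrix protein, had 166, 66 and 45 UMIs in AAA mice and 2, 2 and 0 in control mice, with no overlap per 10000 UMIs. Its fitted log2 fold change was 2.87 ± 0.52 (SE, edgeR adjusted p = 0.00355), and depends on the few control counts. Spp1, osteopontin, had 109, 50 and 35 UMIs in AAA mice and 12, 4 and 4 in control mice (log2 fold change 0.08, edgeR adjusted p = 0.984). Ahsg, a liver-made inhibitor of mineral growth, was at 0.07. Enpp1, which makes pyrophosphate, had 23, 4 and 8 UMIs in AAA mice and 0 in each control mouse, and was not tested.

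Of 14 elastic fiber genes 9 were tested and none passed, with a median log2 fold change of 0.30 against 0.04 over all 1201 genes tested. Eln had 10.6, 9.29 and 19.2 UMIs per 10000 in AAA mice and 8.18, 13.1 and 13.8 in control mice, which overlap (log2 fold change 0.30, edgeR adjusted p = 0.666). Ltbp2, a latent TGF-beta binding protein, was at 0.67 (adjusted p = 0.195), Loxl1, a crosslinking oxidase, at 0.60 (adjusted p = 0.401) and Mfap5, a microfibril protein, at 0.24. AAA 3 was the AAA mouse with the highest level of both Eln and Mgp.

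Of the genes paired with Mgp, Acta2 fell by 1.38 on the log2 scale in AAA mice, with an SE of 0.22 (edgeR adjusted p = 0.00181), and the others did not pass, with Col1a2 at 0.79 (adjusted p = 0.0643) and Gpnmb at 1.05 (adjusted p = 0.188). In the same walls Mgp was at 0.56, and the ratio of Mgp to Acta2 was not tested.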

How the data were processed

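The authors' UMI counts (STARsolo 2.7.5c, mm10, per the labels) were deposited as 1 matrix of 9837644 barcodes, not normalized, with other count fields (whole gene, spliced, unspliced) whose order was inferred from their values. Barcodes were placed on the study's section map along lane 2 (26.6 units per μm, 33 of 40 section edges in line, residual SD 50.1 μm). As in the study, 8551 genes whose names begin with mt or Gm were left out. Sums over each mouse went into the quasi-likelihood test of edgeR 4.0.16, with TMM scaling and genes chosen by filterByExpr. Its p-values were adjusted by Benjamini-Hochberg over the whole table. DESeq2 1.42.0 served as an alternative, and exact permutation tests (scipy 1.17.1) were used for single values. P-values of AAA against control measure the spread between mice. In near against far, the classes and the difference of AAA effects, the mouse was a block. Those p-values measure how differences within mice vary, not the spread of levels between mice. Deviations of mice embedded together correlated at 0.0185, 0.0294 and 0.0556. Thinning to 75 UMIs was computed exactly. Fits were tested on simulated data with known changes. Mgp, the lists and the classes were chosen with earlier results of these data known. Named genes are Mgp, its 4 partners, the 4 list members of most UMIs and any past the test, and the 5 genes most and least like Mgp. Genes of other near and far ratios were chosen after their values were seen. Exact binomial intervals cover counting error only, while the intervals given with edgeR's fits rest on the SE of those fits. Lane 1 was not used. Alternatives without single sections or hexagons, and with library sizes over all genes, were chosen after seeing the data. The others changed normalization, filter, count field, gene minimum, grid, distances and mice.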

Additional observations from a re-analysis of the deposited data

Results flagged for a closer look

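Mgp was also found in places that no comparison used. Tissue left of the first section had 37.3 Mgp UMIs per 10000 UMIs in its hexagons with 75 or more genes, and hexagons between sections had 119. Lane 1, which was not used, had 1181 Mgp UMIs against 43854 in lane 2. These were singled out because they exceed the 3 UMIs that a count of 0 allows. No section stood apart from the others in 12 groups of values examined with Dixon's test, which chance alone would do in about 1 of 20 groups. AAA 1, AAA 2, control 1 and control 2 had too few sections for that test within a mouse. Their sections were examined only within their condition.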

How the results depend on the processing

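Over all kept hexagons Mgp stayed higher in AAA mice in the 20 alternatives run, and passed the threshold with the replicate block (0.53), in DESeq2 (0.78), with UMIs over whole genes (0.66), with all hexagons inside the sections (0.42) and without a low-count filter (1.28, where the median of all genes was 1.31, so that Mgp lay at that median). The block changed no other call in the comparisons of AAA with control mice (0.85 on Acta2-rich hexagons, 0.54 away from them). Leaving out 1 mouse at a time gave 0.27 to 0.79. Away from Acta2-rich hexagons it passed with whole genes (0.78), no filter (1.78, median of all genes 1.62) and without control 2 (0.95), and single mice left out gave 0.22 to 0.95. On Acta2-rich hexagons the call was lost without a filter (1.25, median 1.01), with whole genes (0.71), at 50 genes (0.59) or 100 genes (0.52), with a shifted grid (0.83), in DESeq2 (0.85) and from 4 Acta2 UMIs (0.98), and single mice left out gave 0.68 to 0.95. Near against far passed with whole genes (0.45) and turned without a filter (-0.34, median -0.95), as did the difference of the AAA effects (-0.48, median -1.14). Collagen-rich hexagons turned with whole genes (0.032) and macrophage-rich ones without a filter (0.0050). Hemoglobin-rich hexagons gave -1.64 to -0.99 with single mice left out. With whole genes co-detection passed for Eln (0.30), Gpnmb (0.25) and Acta2 (0.26). Gpnmb turned with a shifted grid (-0.15) and without control 1 (-0.12), its range with mice left out being -0.12 to 0.35. The cause of these changes was not tested. The setting with whole genes also kept more hexagons, 9623 against 2669 in AAA 1 and 1415 against 93 in control 3. Genes past the threshold over all kept hexagons numbered 52, and 38 to 198 in the alternatives, near against far 3 and 0 to 18, on Acta2-rich hexagons 1 and 0 to 12, away from them 32 and 0 to 230, and for the difference 0 and 0 to 3. In the classes they numbered 34 and 15 to 55 (collagen), 33 and 11 to 44 (macrophage), 62 and 24 to 106 (adipocyte) and 18 and 6 to 47 (hemoglobin). Depth limits the controls, whose 9411 to 34221 UMIs hold 122 to 334 Mgp UMIs.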
